A study of Mus musculus with 22 samples.

Results

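The cells described here carried many transcripts of *Twist1* and none of *Foxc1* in sections of mouse embryos at embryonic day 10 (E10). They were chosen by their measured counts. A cell had a total of 50 or more transcripts, a *Twist1* count of 4 or more that made up at least 12 per 1000 of its transcripts, no *Foxc1*, under 2 of the endothelial cadherin gene *Cdh5*, and under 4 of the smooth muscle genes *Tagln* and *Acta2* together. The rule was met by 1625 of 37575 cells, or 4.32%. They are called *Twist1*-high *Foxc1*-negative cells below. The 19486 cells with 50 or more transcripts and no *Foxc1* that also met the limits on *Cdh5*, *Tagln* and *Acta2* are called eligible cells, which left 17861 other eligible cells for comparison. A further 702 cells met every limit except that they carried at least 1 *Foxc1* transcript, and these are called *Foxc1*-positive *Twist1*-high cells.

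*Twist1* encodes a basic helix-loop-helix transcription factor that is expressed in embryonic mesenchyme, the loose connective tissue that fills the embryo between its epithelia, and that is needed for the mesenchyme of the head and the limb buds. *Foxc1* encodes a forkhead transcription factor of paraxial mesoderm and of the sclerotome, the part of the somite from which vertebrae and ribs arise. Mesenchyme beside the dorsal aorta forms part of the niche in which hematopoietic stem cells emerge.

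Transcripts were counted in segmented cells with CosMx spatial molecular imaging on 10 µm sections of fresh-frozen embryos through the aorta-gonad-mesonephros region. There was 1 embryo per genotype, *Nr4a1*-/-*Nr4a2*-/- (label Knockout, 13 sections) and *Nr4a1*+/+*Nr4a2*+/+ (label Wildtype, 9 sections), both at E10. Per the study's methods the mutant *Nr4a1* strain was B6.129S2-*Nr4a1*tm1Jmi/J, and both mutant strains had been backcrossed to C57BL/6J. All sections with 1 label came from the same embryo, so each p-value below measures only the spread between sections, and genotype, embryo and the slides that each held 1 genotype cannot be told apart. A section held 814 to 3431 cells and 169038 to 887904 transcripts of 998 genes.

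The ranges of the targeted genes overlapped between the labels. Over all cells *Nr4a1* lay between 1.74 and 2.65 per 10000 counts in the Knockout sections (median 2.25, n = 13) and between 2.29 and 3.20 in the Wildtype sections (median 2.72, n = 9). *Nr4a2* lay between 3.08 and 5.09 (median 4.12) and between 3.37 and 6.13 (median 4.73). Both genes were lower on average in the Knockout sections, with means of 2.24 (SD 0.25) and 2.77 (SD 0.27) for *Nr4a1* and 4.17 (SD 0.62) and 4.89 (SD 0.83) for *Nr4a2*. The related gene *Nr4a3*, which was not targeted, was lower as well, at 3.65 (SD 0.75) and 5.17 (SD 0.89). The place of the probes relative to the deleted parts was not given in the sources used here, and the study's text gives other numbers of sections per genotype than the labels do. Every direction between genotypes below is therefore one between sections labelled Knockout and sections labelled Wildtype. The number that names a cell was shared by 3410 pairs of cells in different sections, none of which had identical counts.

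The genes of the rule are given as a description. The chosen cells had a median of 6 *Twist1* transcripts (range 4 to 47), or 18.6 per 1000 counts (range 12 to 109), whereas the other eligible cells of a section had 1.27 to 4.57 per 1000 and 10475 of them had none. Of the chosen cells 373 lay at the lowest allowed *Twist1* count of 4 and 337 had 10 or more. Just inside the limit on the share, 162 cells had 12 to under 13 per 1000 at a median total of 411 transcripts, and just outside it 132 eligible cells with 4 or more *Twist1* transcripts had 11 to under 12 per 1000 at a median total of 516.5. A *Foxc1* count of 0 in a cell with a median of 328 transcripts in all does not show that the gene was silent, and 328 of the 702 *Foxc1*-positive *Twist1*-high cells had a single *Foxc1* transcript. The chosen cells were deeper than the other eligible cells (median total 200) and close in depth to the *Foxc1*-positive cells (median total 341.5), with a median of 173, 121 and 183 detected genes in the 3 classes. All levels below are counts per 10000 outside the 5 rule genes, summed over the cells of a class in a section. Wildtype replicate 4, with 6 *Twist1*-high *Foxc1*-negative cells, was below the minimum of 10 cells and was left out of the tests across genes.

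Other genes of mesenchyme were raised in part. Of the 10 mesenchyme markers in the panel outside the rule, 4 rose against the other eligible cells of the same section, 1 fell and 5 did not pass the test (edgeR quasi-likelihood test, Benjamini-Hochberg adjusted p under 0.05), beside 110 of all 993 genes (11.1%), of which 73 were higher (7.35%) and 37 lower (3.73%). The summed level of the 10 markers was 117 to 273 per 10000 in the *Twist1*-high *Foxc1*-negative cells (median 156, n = 21 sections) and 129 to 327 in the other eligible cells (median 161, n = 22) and these ranges overlapped. The sum is weighted to the abundant markers, and gene by gene the median log2 difference of the 10 was 0.17, with 7 above 0, beside -0.004 over all genes. *Twist2*, a close relative of *Twist1*, lay between 7.13 and 27.6 (median 15.6) against 4.35 to 15.9 (median 11.6). It rose by 0.49 on the log2 scale (SE 0.09, adjusted p = 4.31e-06) and was higher in 16 of 21 sections, although the ranges overlapped. The PDGF receptor genes *Pdgfra* and *Pdgfrb*, whose products carry growth signals in mesenchyme, rose by 0.26 (adjusted p = 0.023) and 0.41 (adjusted p = 0.000602), and *Cdh11*, a mesenchymal cadherin gene, rose by 0.40 (adjusted p = 0.00245). The calls of *Pdgfra* and *Cdh11* were the least stable, and held in 3 and 6 of 10 alternative analyses.

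The remaining markers did not follow *Twist1*. *Vim*, which encodes the intermediate filament vimentin and is a common mesenchymal marker, lay between 10.7 and 38.1 per 10000 (median 16.7) against 11 to 59.8 (median 25.6). It fell by 0.57 on the log2 scale (SE 0.08, adjusted p = 8.85e-10) and was lower in 20 of 21 sections. The fall lay mainly in the Knockout-labelled sections, at -0.81 in these alone (adjusted p = 8.26e-13) and -0.13 in the Wildtype-labelled sections alone, where it did not pass the test (adjusted p = 0.734). *Snai2*, *Foxc2*, *Col1a1*, *Col1a2* and *Col3a1* had log2 differences of 0.21, -0.18, 0.02, -0.34 and 0.12, and none passed the test. The name mesenchyme is thus borne out by 4 of 10 markers, and the cells are named by their rule.

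As a check on free or misassigned transcripts, cells of 100 or more counts were thinned to 100 counts. A *Twist2* transcript was then seen in 13.3% of 1562 *Twist1*-high *Foxc1*-negative cells and in 3.79% of 659 hemoglobin-rich cells (20% or more of counts from hemoglobin), which should lack it. The totals included hemoglobin before and after thinning, so hemoglobin-rich cells held fewer counts of other genes. Their shares for other genes were lowered by this alone, and the gap is not one at equal depth. Before thinning the shares were 32.7% at a median total of 328 and 11.8% at a median total of 284. For *Pdgfra* the thinned shares were 15.4% and 5.31%, and for *Foxc2* they were 3.65% and 2.28%. These shares pool the sections and were not tested. The other eligible cells showed 10.2% for *Twist2*, 14.7% for *Pdgfra* and 4.30% for *Foxc2* after thinning, and the 1139 cells with 4 or more *Cdh5* transcripts showed 7.55%, 8.43% and 7.20%. *Twist2* and *Pdgfra* were thus above the level in the hemoglobin-rich and the *Cdh5* cells, with *Pdgfra* close to the other eligible cells. *Foxc2* was below the other eligible cells and the *Cdh5* cells. Among the remaining markers *Pdgfrb*, *Cdh11*, *Col1a1* and *Col3a1* were above the other eligible cells. *Snai2* (5.06% against 5.38%), *Col1a2* (13.3% against 18.4%) and *Vim* (14.5% against 21.5%) were below them. *Vim* was at 13.4% in the hemoglobin-rich cells and 45.0% in the *Cdh5* cells.

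The share of these cells differed widely between sections. They made up 2.91% to 22.2% of the eligible cells in the Knockout-labelled sections (median 8.53%, mean 9.31% ± 5.70 SD, n = 13) and 1.26% to 9.48% in the Wildtype-labelled sections (median 4.37%, mean 4.92% ± 2.57 SD, n = 9). The highest shares were in Knockout replicates 8 (22.2%), 9 (16.3%) and 12 (15.5%), and the other Knockout sections lay within or close to the Wildtype range. The means differed by 4.39 percentage points (two-sided exact permutation test over sections, p = 0.0397). When cells of 100 or more counts were thinned to 100 counts, 12012 shallower cells were left out. The limits on the 5 genes, with a *Twist1* count of 4 or more and no limit per 1000, were applied to the thinned counts. In these a cell could lose its *Foxc1* transcripts, and 291 of 21319 eligible cells were chosen. At 100 counts per cell, 4 *Twist1* transcripts are a larger share than both 12 and 20 per 1000. The thinned rule thus chose a narrower class than the main rule, and its p-value is not for the same cells. The means were then 1.77% and 0.512%, a difference of 1.26 percentage points (exact permutation p = 0.00641). The difference did not pass the test with a stricter *Twist1* limit of 6 transcripts and 20 per 1000 (1.53 percentage points, exact permutation p = 0.0705), nor when any of 10 single sections was left out (exact permutation p up to 0.0766), namely Knockout replicates 2, 6, 8, 9 and 12 and Wildtype replicates 3, 4, 6, 8 and 9.

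The share also changed from place to place within a section. Among fields of view with at least 50 eligible cells it ran from 4.88% to 31.0% within Knockout replicate 9, from 0.265% to 12.1% within Knockout replicate 11 and from 5.46% to 28.0% within Wildtype replicate 1. Fields of Knockout replicate 9 and of Wildtype replicate 1 thus spanned a range as wide as that between sections. Whether the imaged fields covered the same tissues in both embryos was not tested.

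**Figure D1:**
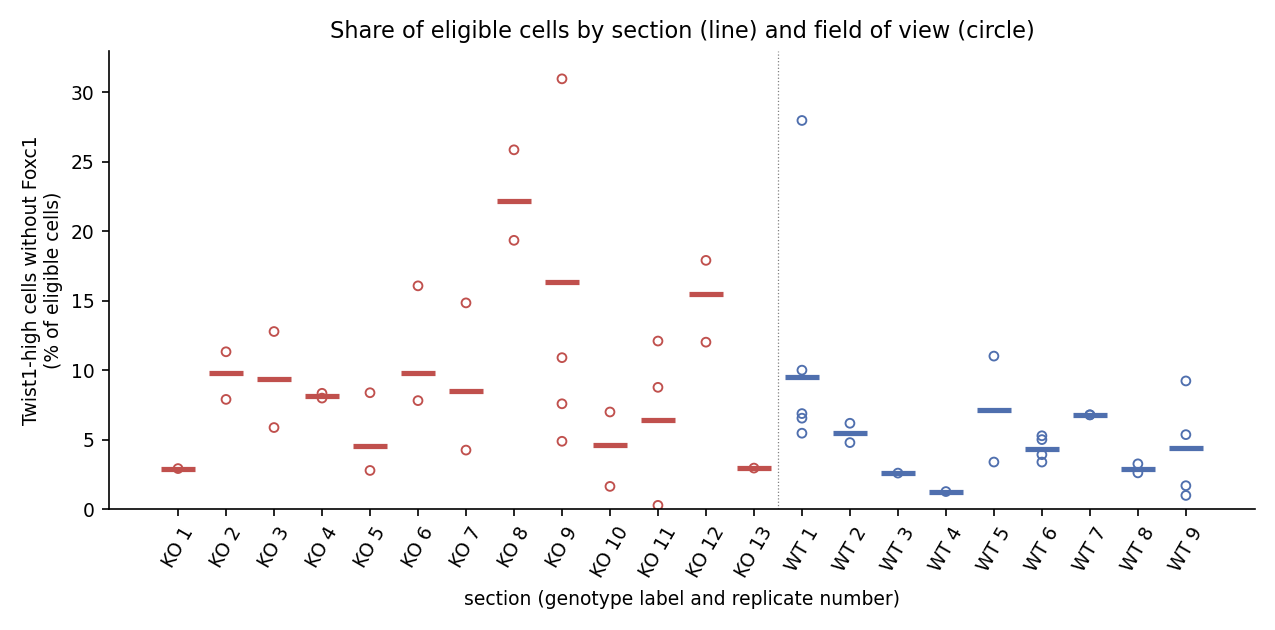
Share of eligible cells that were *Twist1*-high and *Foxc1*-negative (percent, y axis) in each section (x axis, genotype label and replicate number), with a line for the section and circles for its fields of view of at least 50 eligible cells. The Knockout-labelled sections reach 22.2% and the Wildtype-labelled sections 9.48%, and fields of single sections cover most of that range.

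Against the other eligible cells of the same section, the differences of the largest fold were lower levels of genes of other cell types. With a fold of at least 2 added to the adjusted p, 2 of 993 genes were lower (0.201%) and 0 were higher, where 208 genes had an unadjusted p under 0.05. *Hba-a1/2*, the alpha globin genes of erythroid cells, lay between 5.08 and 81.2 per 10000 (median 26.8) against 129 to 856 (median 226). The ranges did not overlap, and the level was 7.07-fold lower (log2 difference -2.82, SE 0.28, adjusted p = 1.06e-07), with the same direction in 21 of 21 sections. The rule takes *Twist1* as a share of all transcripts of a cell, globin included, so a globin-rich cell met it less easily. The fold and the p-value of *Hba-a1/2* were thus partly set by the choice of cells, as were the erythroid sums below. *Sox2*, a transcription factor gene of neural progenitors, lay between 0 and 5.01 (median 1.21) against 1.54 to 38 (median 5.16). It was 4.02-fold lower (log2 difference -2.01, SE 0.19, adjusted p = 4.28e-14) and lower in 19 of 21 sections.

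Markers of other lineages were called in some lists and not in others, and none was at 0 counts. At the median section the summed erythroid markers were at 44.3 per 10000 in the *Twist1*-high *Foxc1*-negative cells and 245 in the other eligible cells, the epithelial markers at 33.8 and 50.4, the neural crest and autonomic markers at 33.9 and 48.5, the neural tube markers at 17.9 and 26.0, the cardiac and skeletal muscle markers at 24.1 and 33.4, the endothelial markers at 70.1 and 88.5, the smooth muscle markers at 140 and 164 and the macrophage markers at 37.8 and 44.9. Each of the 8 lists was thus lower at the median, although both classes had met the same limits on *Cdh5*, *Tagln* and *Acta2*. By single genes 3 of 3 erythroid, 3 of 6 epithelial, 2 of 8 neural crest and autonomic and 2 of 5 neural tube markers fell and 0 rose. None of the 12 endothelial, 8 macrophage and 6 cardiac and skeletal muscle markers passed the test, and the macrophage list had a median log2 difference of 0.02 with 5 of 8 genes above 0. Of 7 smooth muscle markers *Cald1*, which encodes the actin-binding protein caldesmon, rose (0.20) and the tropomyosin gene *Tpm1* fell (-0.36). Single markers that fell were the erythropoietin receptor gene *Epor* (log2 difference -0.89, adjusted p = 1.1e-06), the keratin genes *Krt19* (-0.80, adjusted p = 1.99e-08) and *Krt8* (-0.57, adjusted p = 7.55e-07), the epithelial adhesion gene *Epcam* (-0.69, adjusted p = 0.002) and the glial and neural crest factor gene *Sox10* (-0.50, adjusted p = 0.000673).

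Among 11 transcription factor genes of mesenchyme and of epithelial-mesenchymal transition, 3 rose and 1 fell, and the median log2 difference was 0.13 beside -0.00 over all genes. *Snai1*, a repressor of epithelial genes, lay between 8.91 and 31.5 per 10000 (median 14.5) against 8.58 to 16.8 (median 12.2) and rose by 0.50 (adjusted p = 2.75e-06). *Sox4*, a factor of many progenitors, rose by 0.37 (adjusted p = 2.92e-05). *Foxf1*, a forkhead gene of lateral plate and gut mesenchyme, fell by 0.39 (adjusted p = 0.0298), a call that held in 5 of 10 alternatives. After thinning to 100 counts it was seen in 3.84% of the *Twist1*-high *Foxc1*-negative cells, 5.39% of the other eligible cells and 3.64% of the hemoglobin-rich cells. None of the 8 sclerotome and cartilage genes passed the test in this comparison (median log2 difference 0.02), *Pax1* and *Pax9* included (0.11 and 0.23).

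Genes of receptors and signals moved in small numbers. *Epha3*, an ephrin receptor gene of mesoderm, lay between 5.82 and 39.4 per 10000 (median 15.2) against 6.95 to 13.4 (median 10.1). It rose by 0.65 (SE 0.09, adjusted p = 9.87e-10) and was called in 10 of 10 alternatives. *Dusp6*, a phosphatase gene induced by FGF signaling, rose by 0.62 (SE 0.10, adjusted p = 1.06e-07), again in 10 of 10 alternatives, and the FGF receptor gene *Fgfr2* rose by 0.30 (adjusted p = 0.0154) in 2 of 10. They were the 2 of 15 FGF genes that rose, and 0 fell. *Nfatc4*, which encodes a calcium-regulated transcription factor and is in none of the lists, lay between 3.56 and 28.8 (median 17.6) against 6.86 to 18.2 (median 12.3). It rose by 0.65 (SE 0.09, adjusted p = 7.17e-11), was higher in 19 of 21 sections, and is named here after its values were seen. The ranges of *Epha3*, *Dusp6* and *Nfatc4* overlapped between the classes, so the differences were shifts within sections rather than separate levels.

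The other signaling lists are read beside the 7.35% of all genes that rose and the 3.73% that fell. In them, 1 of 26 TGF-beta, BMP and activin genes rose, the ligand gene *Bmp4* (0.36, adjusted p = 0.00436), and 0 fell. Of 26 Wnt and hedgehog genes 1 rose and 2 fell, namely *Ctnnb1*, which encodes beta-catenin (0.33), the Wnt receptor gene *Fzd4* (-0.41) and the hedgehog ligand gene *Shh* (-0.48, adjusted p = 0.00496, lower in 19 of 21 sections). After thinning to 100 counts *Shh* was seen in 4.10% of the *Twist1*-high *Foxc1*-negative cells and 4.78% of the other eligible cells. Both were close to the 3.79% of the hemoglobin-rich cells. Of 13 Notch genes 2 fell, the receptor gene *Notch1* (-0.37, adjusted p = 0.042) and the target gene *Hes5* (-0.59, adjusted p = 0.00272), and 0 rose. In the IGF axis the growth factor gene *Igf2* rose by 0.36 (adjusted p = 6.28e-07) and the binding protein gene *Igfbp3* fell by 0.55 (adjusted p = 5.34e-05) among 9 genes. The rise of *Igf2* was 0.05 (adjusted p = 0.939) when the other eligible cells were matched in depth and in the share of counts from dim genes. The retinoic acid receptor gene *Rarg* (0.32, adjusted p = 0.029) was the 1 of 18 nuclear receptor genes that rose, and 0 fell.

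Matrix genes did not move together. Of 36 collagen and matrix genes 3 rose and 4 fell, with a median log2 difference of 0.01. Those that rose were *Mmp2*, a collagenase gene (0.40, adjusted p = 0.000111), the collagen gene *Col16a1* (0.49, adjusted p = 0.00842) and *Serpinh1*, which encodes a collagen chaperone (0.30, adjusted p = 3.44e-06). *Serpinh1* turned to -0.03 when the other cells were matched in depth and dim-gene share. Those that fell were *Lum* (-0.75, adjusted p = 0.0135), *Col6a2* (-0.52, adjusted p = 0.00395), the basement membrane gene *Col18a1* (-0.35, adjusted p = 0.00146) and *Sparc*, a matrix-binding protein gene (-0.32, adjusted p = 0.00312).

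Growth and housekeeping genes accounted for many of the rises. Of 19 proliferation genes 10 rose and 0 fell (median log2 difference 0.26), among them the topoisomerase gene *Top2a* (0.39, adjusted p = 4.79e-07), *Birc5* of the mitotic spindle (0.41, adjusted p = 5.63e-06), the replication clamp gene *Pcna* (0.35, adjusted p = 8.2e-06) and *Myc* (0.55, adjusted p = 1.3e-06). The rise of the cyclin gene *Ccnd1*, 0.26, was -0.03 in the cells matched in depth and dim-gene share. Of 19 abundant translation and housekeeping genes 17 rose and 0 fell (median 0.52). The glycolytic enzyme gene *Eno1/b* lay between 91.6 and 414 per 10000 (median 190) against 45.5 to 215 (median 128), rose by 0.76 (SE 0.05, adjusted p = 2.77e-30) and was higher in 21 of 21 sections.

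Outside the lists, 3 further genes named after their values were seen fell in at least 19 of 21 sections. *Ezr*, which encodes the membrane linker ezrin, lay between 3.56 and 15.3 per 10000 (median 7.05) against 8.58 to 23.3 (median 13.2) and fell by 0.93 (adjusted p = 6.85e-13) in 21 of 21 sections. The metallothionein genes *Mt1* (-0.92, adjusted p = 3.78e-05) and *Mt2* (-0.94, adjusted p = 0.000172) were lower in 20 and 19 of 21 sections. *Cxcl12*, the chemokine gene of stromal niches, fell by 0.60 (adjusted p = 5.75e-06) in 18 of 21 sections.

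A measure of dim signal moved with these rises. The 496 genes with the lowest totals made up a median of 20.2% of the counts in the *Twist1*-high *Foxc1*-negative cells and 21.8% in the other eligible cells, and the share was lower in the *Twist1*-high cells in 20 of 21 sections. Its part in the result was not tested directly. With other eligible cells matched on total count and on this share, 54 genes passed the adjusted p, 32 higher and 22 lower, of which 50 were among the 110. Scaling to library size without TMM factors shifted the median of all genes to -0.13 and gave 51 higher and 144 lower genes in place of 73 and 37.

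**Figure D2:**
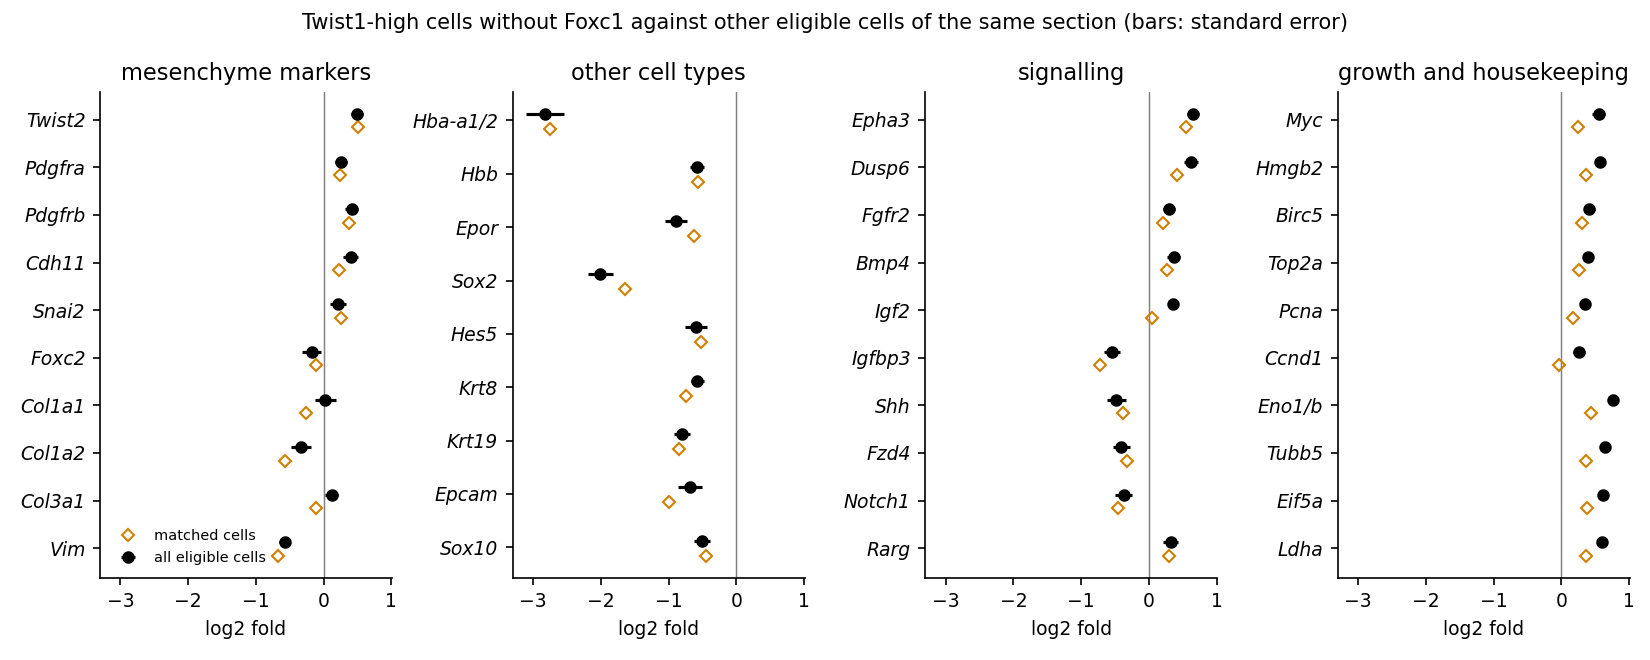
Log2 fold of *Twist1*-high *Foxc1*-negative cells over other eligible cells of the same section (x axis; black points with standard errors, and open diamonds for cells matched in depth and dim-gene share) for genes grouped by list (y axis). The mesenchyme marker *Twist2* (0.49) and the receptor gene *Epha3* (0.65) lie to the right, and *Vim* (-0.57) and the genes of other cell types to the left, down to *Hba-a1/2* at -2.82.

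Levels were also read over steps of *Twist1* in eligible cells of 200 to 499 counts, in 5 steps of 3539 cells with none, 1884 with under 6 per 1000, 1319 with 6 to under 12, 650 chosen cells with 12 to under 20 and 335 chosen cells with 20 or more. These pooled levels are a description, since *Twist1* orders the cells and the steps mix sections. Globin counts are part of the total that sets the step, so a globin-rich cell falls more easily in a lower step. *Snai1* was at 10.3, 13.2, 14.4, 16.4 and 17.8 per 10000 and *Twist2* at 10.3, 12.8, 14.2, 15.2 and 15. *Pdgfra* was at 13.7, 20.9, 21.4, 20 and 15.9, so it was highest in cells with little or moderate *Twist1*. *Vim* ran the other way, at 31.4, 23.9, 19.9, 18.7 and 17, and *Hba-a1/2* fell from 382 to 108, 54.5, 43.1 and 26.7. *Cxcl12* was at 10.9, 14.1, 12.3, 9.18 and 5.80. Most of the difference in *Hba-a1/2* and *Sox2* (11.3, 3.72, 3.09, 2.11 and 1.08) therefore lay, on the linear scale, between cells with no *Twist1* and cells with any.

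**Figure D3:**
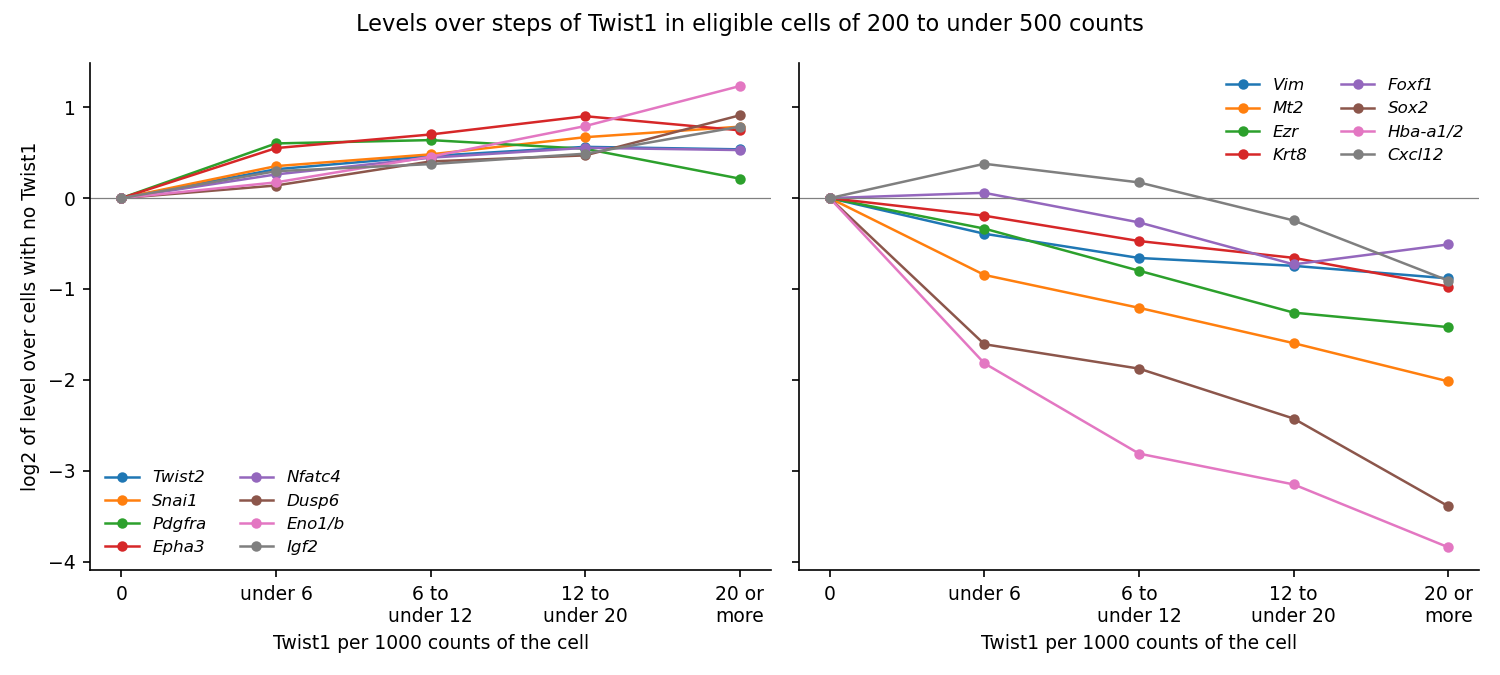
Level of genes in each step of *Twist1* per 1000 counts (x axis) as the log2 of the level over that in cells with no *Twist1* (y axis), pooled over eligible cells of 200 to 499 counts. *Snai1* climbs from 10.3 to 17.8 per 10000 over the steps, while *Hba-a1/2* falls from 382 to 26.7.

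The comparison with *Foxc1*-positive *Twist1*-high cells asked what else differed between *Twist1*-high cells without and with *Foxc1*. It used 18 sections with at least 10 cells of each class, 13 labelled Knockout and 5 labelled Wildtype. Of 964 genes 24 passed the adjusted p (2.49%), 13 higher (1.35%) and 11 lower (1.14%) in the *Foxc1*-negative cells, and 61 had an unadjusted p under 0.05. The genes with the largest falls were *Cxcl12*, *Sox9*, *Sparcl1* and *Foxc2*. Those with the largest rises were *Cyp1b1*, *Bmp4*, *Nfatc4*, *Lgals1* and *Col1a1*.

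*Cxcl12*, whose product holds and attracts hematopoietic cells through its receptor, lay between 3.58 and 24.9 per 10000 in the *Foxc1*-negative cells (median 5.35, n = 21) and between 5.44 and 80 in the *Foxc1*-positive cells (median 29, n = 18). It was 3.57-fold lower (log2 difference -1.83, SE 0.14, adjusted p = 3.66e-21), in 18 of 18 sections, and was called in 9 of 9 alternatives. After thinning to 100 counts a *Cxcl12* transcript was seen in 6.21% of 1562 *Foxc1*-negative cells and in 24.6% of 690 *Foxc1*-positive cells, and before thinning in 15.6% and 47.4%. The *Foxc1*-negative cells thus carried far less *Cxcl12* although the class ranges overlapped between sections.

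*Sox9*, the master regulator gene of cartilage, lay between 2.54 and 35.6 per 10000 (median 9.97) against 9.07 to 73.2 (median 27.3). It was 2.61-fold lower (log2 difference -1.38, SE 0.12, adjusted p = 1.48e-26), in 17 of 18 sections. It passed the test in the Knockout-labelled sections alone (-1.46) and not in the 5 Wildtype-labelled sections alone (-0.99, adjusted p = 0.468). *Foxc2*, the close relative of *Foxc1*, lay between 1.96 and 17.8 (median 2.91) against 1.08 to 21.4 (median 7.45) and was 2.19-fold lower (log2 difference -1.13, adjusted p = 1.77e-05). Both genes were low in *Foxc1*-negative cells in most sections, with overlap between the classes.

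The 8 sclerotome and cartilage genes had a median log2 difference of -0.48 beside 0.02 over all 964 genes, with 3 lower, 0 higher and all 8 below 0. Beside *Sox9* and *Foxc2* the third was *Pax1*, a paired-box gene of the sclerotome, which lay between 0 and 10.7 per 10000 (median 6.51) against 0 to 21.6 (median 10.9) and fell by 0.74 (adjusted p = 0.00136). *Pax9* (-0.19, adjusted p = 0.977) and the cartilage collagen gene *Col11a1* (-0.61, adjusted p = 0.0663) did not pass the test. *Sox9* and *Foxc2* also stand in the list of mesenchymal transcription factors, where they were the 2 of 11 genes that fell, and 0 rose.

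*Sparcl1*, a matrix-associated protein gene, lay between 2.01 and 14.5 per 10000 (median 5.45) against 0 to 26.5 (median 10.4) and was 2.24-fold lower (adjusted p = 1.91e-08). Its log2 difference was -1.27 in the Knockout-labelled sections alone and -0.66 in the Wildtype-labelled sections alone, where it did not pass the test (adjusted p = 0.975). The cadherin gene *Cdh11* (-0.65, adjusted p = 0.000478) and *Sox10* (-0.72, adjusted p = 0.0274) were also lower. Of the 36 matrix genes the fibrillar collagen gene *Col3a1* (-0.43) and the basement membrane collagen genes *Col4a1* (-0.32) and *Col4a2* (-0.38) were lower and *Col1a1* was higher.

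*Col1a1*, the main collagen gene of bone and skin, lay between 22.9 and 129 per 10000 (median 45.5) against 13.6 to 71.7 (median 31.9) and rose by 0.52 (SE 0.09, adjusted p = 4.36e-06) in 15 of 18 sections. *Lgals1*, which encodes galectin-1, rose by 0.55 (SE 0.13, adjusted p = 0.00103) in 16 of 18 sections, *Nfatc4* by 0.60 (SE 0.13, adjusted p = 0.000668) in 14 and *Bmp4* by 0.63 (SE 0.17, adjusted p = 0.0148) in 15. The calls of *Nfatc4* and *Bmp4* held in 6 of 9 alternatives each, and in the Knockout-labelled sections alone both were of similar size without passing the test (0.47, adjusted p = 0.115, and 0.57, adjusted p = 0.149). In the Wildtype-labelled sections alone *Nfatc4* passed it (1.01, adjusted p = 0.0429) and *Bmp4* did not (0.82, adjusted p = 0.572). There *Col1a1* (0.34, adjusted p = 0.975) and *Lgals1* (0.79, adjusted p = 0.51) did not pass it either. In the Knockout-labelled sections alone *Col1a1* (0.57) and *Lgals1* (0.50) passed it. *Lgals1* also lost its call in cells matched on depth and dim-gene share (0.65, adjusted p = 0.0562). *Cyp1b1*, a cytochrome P450 gene, rose by 0.75 (SE 0.23, adjusted p = 0.0495), a call that held in 1 of 6 alternatives. Each range overlapped with that of the *Foxc1*-positive cells. In the IGF axis *Igfbp5* (0.45) and the imprinted noncoding RNA *Meg3* (0.44, adjusted p = 3.89e-05) were the 2 of 9 that rose, but *Igfbp5* was at -0.11 in the Wildtype-labelled sections alone.

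*Twist2* (0.13), *Snai1* (0.25), *Pdgfra* (0.10), *Pdgfrb* (-0.01) and *Vim* (-0.16) did not pass the test between the *Foxc1*-negative and the *Foxc1*-positive cells, with adjusted p between 0.812 and 0.999. None of the 26 TGF-beta, BMP and activin genes other than *Bmp4*, and none of the Wnt, hedgehog, Notch, ephrin, PDGF or nuclear receptor genes tested, passed it either. The FGF receptor gene *Fgfr2* rose by 0.49 (adjusted p = 0.0353) as 1 of 13 FGF genes tested, a call that held in 1 of 9 alternatives. Of the proliferation genes *Stmn1* (0.29) and *Hmgb2* (0.17) were the 2 of 19 that rose. The share of counts from dim genes was lower in the *Foxc1*-negative cells in 12 of 18 sections, and 12 genes were called in cells matched on depth and on that share.

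**Figure D4:**
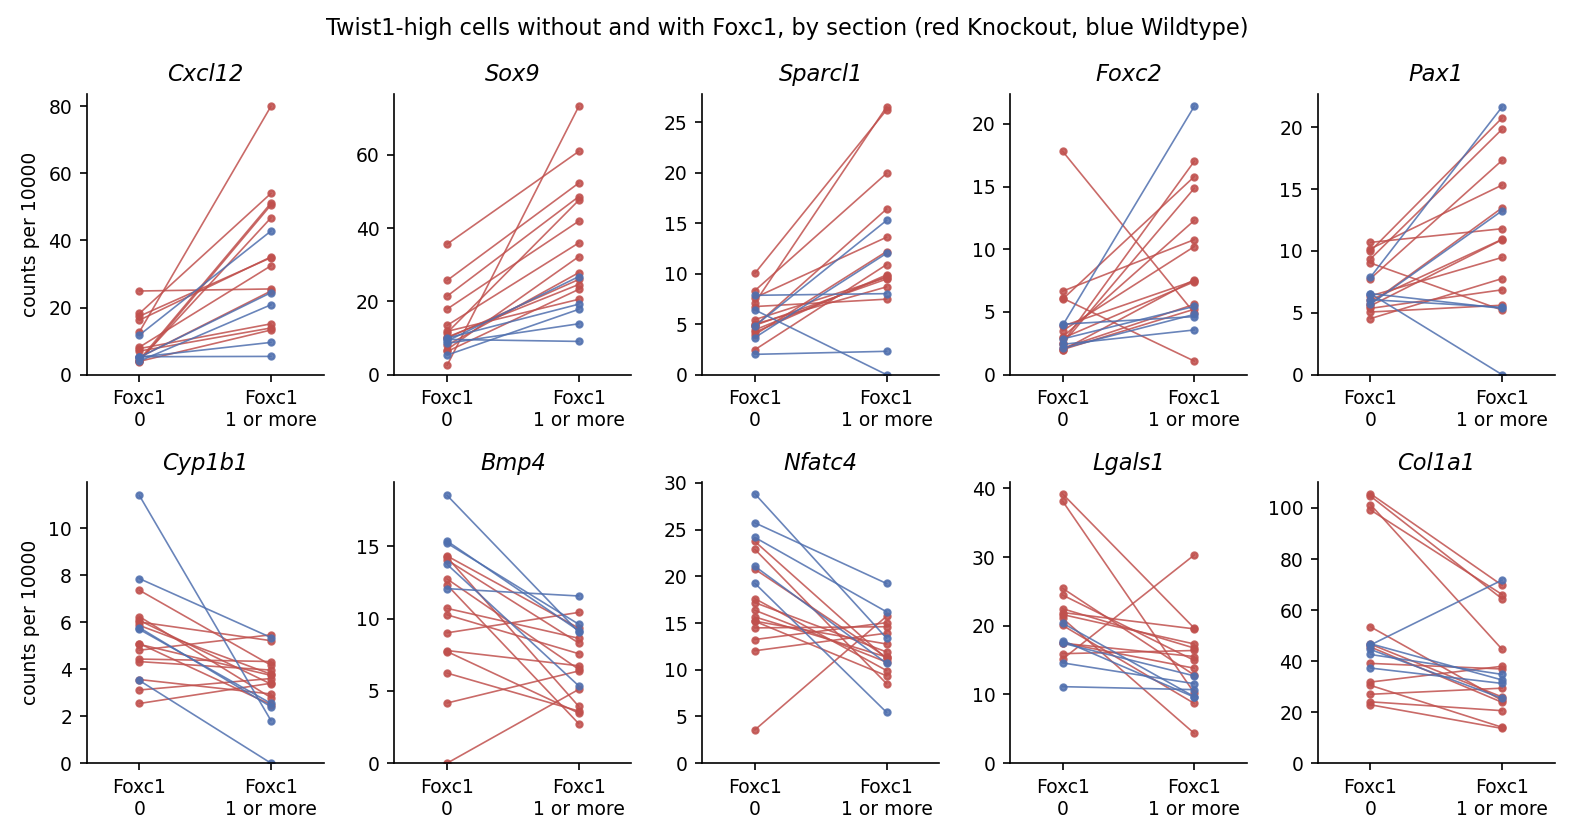
Counts per 10000 (y axis) in *Twist1*-high cells without and with *Foxc1* (x axis), with a line for each of 18 sections (red labelled Knockout, blue labelled Wildtype). *Cxcl12* climbs with *Foxc1* in 18 of 18 sections and *Sox9* in 17, while *Col1a1* is lower with *Foxc1* in 15.

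The 1132 *Twist1*-high *Foxc1*-negative cells of the 13 Knockout-labelled sections were then compared with 487 of the 8 Wildtype-labelled sections that passed the minimum. As a description of the rule, cells without *Foxc1* were 65.9% of all *Twist1*-high cells with the Knockout label (1132 of 1718) and 81.0% with the Wildtype label (493 of 609). By section the share was 30% to 78.7% (median 62.3%, n = 13) and 57.9% to 88.2% (median 80.8%, n = 9), and the labels overlapped. Of 636 genes tested 10 were higher in the Knockout-labelled sections (1.57%) and 0 were lower, and 69 had an unadjusted p under 0.05. DESeq2 called 13 higher and 1 lower. Scaling to library size without TMM factors, which put the median of all genes at -0.22, turned the split to 4 higher and 10 lower.

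*Nr4a2* and *Nr4a3* did not pass the test in these cells (log2 differences 0.20, adjusted p = 0.845, and -0.08, adjusted p = 0.934). *Nr4a1* was below the filter on low counts and was not tested, at 0.978 to 9.02 per 10000 with the Knockout label (median 2.48) and 0 to 3.28 with the Wildtype label (median 2.09).

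Of the 10 genes that were higher, 7 were on the list of abundant translation and housekeeping genes. That list was chosen with earlier results of these data known, so the overlap is a description and not a separate finding. The glycolytic enzyme gene *Eno1/b* lay between 91.6 and 171.8 per 10000 with the Wildtype label (median 141.2, n = 8) and reached from just under that highest value to 414 with the Knockout label (median 240.4, n = 13). It rose by 1.06 on the log2 scale (SE 0.17, adjusted p = 3.15e-06), and 12 of 13 Knockout-labelled sections lay above every Wildtype-labelled section. *Hsp90ab1*, a cytosolic chaperone gene, lay between 221 and 458 (median 311) against 136 to 236 (median 184) and rose by 0.94 (adjusted p = 3.76e-05), with 11 of 13 sections above all of the other label. The related chaperone genes *Hsp90aa1* (0.74, adjusted p = 0.00504) and *Hsp90b1* of the endoplasmic reticulum (0.73, adjusted p = 0.0064) rose as well, each with 10 of 13 sections above. These 4 genes kept their call in 21 of 21 analyses that left out a section. Of 8 other alternatives, *Eno1/b* and *Hsp90ab1* kept it in 7, and *Hsp90aa1* and *Hsp90b1* in 6. None was called in the sections whose deposited names carry a 1, where *Eno1/b* was at 0.64 (adjusted p = 0.743). At the stricter *Twist1* limit *Hsp90aa1* was at 0.39 (adjusted p = 0.146).

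The translation genes *Btf3* (0.74, adjusted p = 0.0156), *Fau* (0.71, adjusted p = 0.0156) and *Eif5a* (0.64, adjusted p = 0.0279) and the cyclophilin gene *Ppia* (0.53, adjusted p = 0.0349) completed the genes from that list. The RNA-binding protein gene *Ybx3* (0.71, adjusted p = 0.0444) rose too and, like *Hsp90b1*, is not on the list. *Btf3*, *Fau*, *Eif5a*, *Ppia* and *Ybx3* lost their call in 5 to 16 of the analyses that left out 1 section. *Sox9* was the 1 developmental regulator among the 10. It lay between 2.54 and 35.6 per 10000 (median 11.4) against 5.21 to 10.7 (median 8.86) and rose by 0.90 (adjusted p = 0.0349), but 7 of 13 Knockout-labelled sections lay above all Wildtype-labelled ones and the lowest value was also a Knockout-labelled one. Its call held in 1 of 7 alternatives and in 7 of 21 analyses without a section.

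The same genes were higher with the Knockout label in the other eligible cells, where 107 of 993 genes passed the adjusted p (10.8%), 81 higher (8.16%) and 26 lower (2.62%). There *Eno1/b* rose by 1.28, *Hsp90ab1* by 1.22, *Hsp90aa1* by 0.91, *Fau* by 1.02 and *Sox9* by 0.89. Of the 19 abundant translation and housekeeping genes, a list chosen with earlier results known, 7 were higher in the *Twist1*-high *Foxc1*-negative cells (median log2 difference 0.53). In the other eligible cells 19 were higher (median 0.83). A test of the interaction of label and class called 1 of these 19, *Tubb5*, and all 19 had a smaller difference in the *Twist1*-high *Foxc1*-negative cells (median -0.18, beside -0.005 over all genes). Of the proliferation genes 0 of 18 passed the test in the *Twist1*-high *Foxc1*-negative cells (median 0.28) and 11 of 19 were higher in the other eligible cells (median 0.37), while the interaction called 0 of 19 (median 0.02). No gene of the FGF, PDGF, Wnt and hedgehog, TGF-beta, IGF, Notch, ephrin, nuclear receptor or matrix lists passed the test in the *Twist1*-high *Foxc1*-negative cells. The share of counts from dim genes moved with the label, at 14.2% to 21.7% with the Knockout label (median 18.9%) and 20.6% to 24.5% with the Wildtype label (median 22.1%), and its part in the rises was not tested.

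Whether the *Twist1*-high *Foxc1*-negative cells differed from the other eligible cells in their response to the label was tested as an interaction. It was called for 2 of 993 genes (0.201%), both with a smaller difference in the *Twist1*-high *Foxc1*-negative cells, and 51 had an unadjusted p under 0.05. *Vim* lay between 12.7 and 38.1 per 10000 in these cells with the Knockout label (median 17.8) and between 10.7 and 17.7 with the Wildtype label (median 15.6). In the other eligible cells it lay between 22.4 and 59.8 (median 31.3) and between 11 and 25.2 (median 17.1). Fitted in each class on its own, the log2 difference of *Vim* between labels was 0.40 in the *Twist1*-high *Foxc1*-negative cells, which did not pass the test (adjusted p = 0.387), and 1.30 in the others, which did (adjusted p = 3.58e-05). The joint fit of both classes put the difference between these responses at -0.70 (SE 0.16, adjusted p = 0.0244). For the tubulin gene *Tubb5* the separate fits gave 0.40 (adjusted p = 0.25) and 1.01 (adjusted p = 2.55e-05), and the joint fit gave -0.47 (SE 0.12, adjusted p = 0.0244). Neither was called when the other cells were matched in depth.

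**Figure D5:**
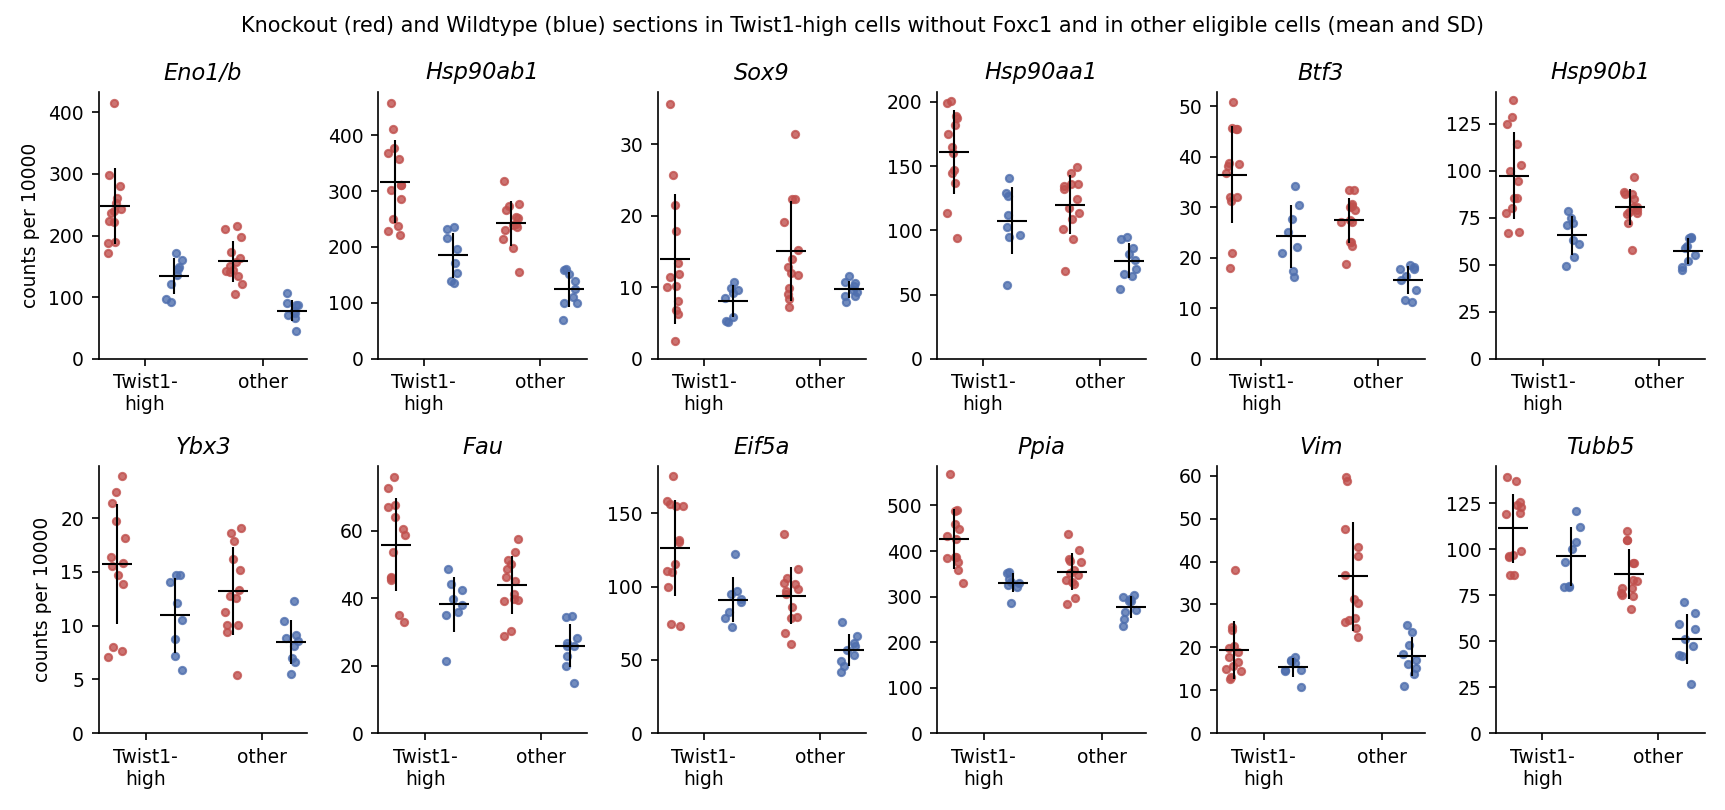
Counts per 10000 (y axis) of genes in *Twist1*-high *Foxc1*-negative cells and in other eligible cells (x axis) for each section labelled Knockout (red) or Wildtype (blue), with mean and SD. *Eno1/b* is higher with the Knockout label in both classes (log2 differences 1.06 and 1.28), and *Vim* is separated mainly in the other eligible cells (0.40 and 1.30).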

How the data were processed

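Per the study's methods and a description in the labels the E10 embryos were fresh frozen, whereas a protocol in the labels names paraffin embedding and the series text a human panel. They were sectioned, hybridized with CosMx probes and imaged, and the authors segmented cells and assigned transcripts to them with the AtoMx platform. The deposited values are raw counts per gene and cell, with no normalization and no negative control probes in the tables used here. The cells and gene lists were chosen with earlier results of these data known. No cell was removed as a doublet, and overlapping or poorly segmented cells can mix transcripts of neighbors.

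Counts were summed per section and class over cells, with at least 10 cells, and tested with edgeR 4.0.16 (TMM factors, filterByExpr, robust quasi-likelihood fit, Benjamini-Hochberg threshold 0.05, R 4.3.3), with the section as a block between classes and the genotype label between embryos. Genes named were *Hba-a1/2* and the 5 largest rises and falls against *Foxc1*-positive cells, all 10 genes called between labels, both interaction genes, fixed markers and members of counted lists. Some items that this rule names are not reported here. DESeq2 1.42.0, limma 3.58.1, other thresholds, scalings and matched cells were alternatives. Shares were compared by exact permutation of sections. Section totals were 169038 to 887904 counts, and the fewest *Twist1*-high *Foxc1*-negative cells tested in a section were 11. On simulated counts with log2 changes of 1 and 0.6, edgeR recovered 100% and 100% of the changed genes against other eligible cells, 98% and 64% against *Foxc1*-positive cells, 96% and 61% between labels and 87% and 49% for the interaction.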

Additional observations from a re-analysis of the deposited data

Results flagged for a closer look

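Of 33 groups of Wildtype-labelled values tested, 4 had a section far from the others, where chance marks about 1 group in 20. *Cxcl12* in *Twist1*-high *Foxc1*-negative cells was at 11.8 per 10000 in Wildtype replicate 2, with the next highest section at 7.27. *Foxc2* in these cells was at 7.16 per 10000 in Wildtype replicate 3, with the next highest at 4.03. *Nr4a3* in these cells was at 1.51 per 10000 in Wildtype replicate 7, with the next lowest at 4.56. *Vim* in these cells was at 10.7 per 10000 in Wildtype replicate 3, with the next lowest at 14.5. That section held 11 such cells with 2792 counts in all outside the rule genes, so its *Foxc2* and *Vim* values rest on few transcripts. The difference between labels was smaller in *Twist1*-high *Foxc1*-negative cells than in other eligible cells by -0.47 on the log2 scale for *Tubb5* and by -0.70 for *Vim*, by the interaction test of edgeR.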

How the results depend on the processing

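The difference in share between labels, 4.39 percentage points, kept its sign throughout and lost the threshold at the stricter *Twist1* limit (1.53) and within the sections whose deposited names carry a 1 (2.89, exact permutation p = 0.158) or a 2 (6.22, exact permutation p = 0.143), a number whose meaning the labels do not give. Without single sections it was 3.32 to 4.96. Against other eligible cells the 2 genes of at least 2-fold became 8 with cells lacking *Twist1* as the comparison, 13 at the stricter limit, 6 in Knockout-labelled sections alone and 6 without TMM factors. By adjusted p alone the 110 genes became 66 in Wildtype-labelled sections alone, 195 without TMM factors and 54 in cells matched on depth and dim-gene share. Against *Foxc1*-positive cells the 24 genes became 14 and 2 in Knockout- and Wildtype-labelled sections alone and 12 in cells so matched. Between labels the 10 genes became 3 at the stricter limit, 0 and 20 in sections numbered 1 and 2, 6 with that number as a random block (limma voom), 4 without the 3 sections of over 150 chosen cells, and 4 to 13 without single sections. The 2 interaction genes became 6 by DESeq2 and 0 in cells matched in depth or in depth and dim-gene share. The causes were not tested. The cells matched on both depth and dim-gene share, the field of view as the block and the sections of over 150 cells were added after seeing the data. Classes were paired within sections, but Knockout- and Wildtype-labelled sections could not be paired with each other, since they come from different embryos. The labels number the 22 sections once through both embryos, and the number 1 or 2 in the deposited names marks several sections of each. A class of few cells per section limits the call of low genes, and in members 636 of 993 genes could be tested between labels.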
